A study of Homo sapiens with 18 samples.

Results

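The presynaptic vesicle and release genes are 36 genes whose products sense calcium, build the synaptic vesicle, fuse it with the plasma membrane, organise the active zone or retrieve vesicle membrane. They were drawn up as a list of gene symbols with earlier results of these data known, and all 36 were found among 53853 deposited gene entries and passed the filter on low counts. RNA was measured in 18 libraries of brain organoids at day 83, grown with a ventral forebrain protocol from the human embryonic stem cell lines H9 and H1. Each line had 3 groups of 3 libraries. Chronic organoids received 1 µM dopamine daily for 1 week with a final dose 1 hour before collection, acute organoids received a week of vehicle and then 1 µM dopamine for 1 hour, and control organoids received vehicle alone. The vehicle, 100 µM ascorbic acid, was present in every group. Each line stands for 1 genetic background, so a difference between H9 and H1 cannot be told apart from a difference between differentiations. Nothing in the labels ties the 3 libraries of a group to different cultures, and the p-values therefore describe variation from library to library that could be technical.

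At a chemical synapse, transmitter-filled vesicles dock at the active zone, where scaffold proteins such as Bassoon, Piccolo and RIM hold them near calcium channels and Munc13 proteins make them ready to fuse. Fusion is driven by SNARE proteins, with VAMP on the vesicle and syntaxin and SNAP-25 on the plasma membrane, while complexins clamp and promote it. Calcium triggers release by binding synaptotagmins, and several of these genes are paralogs that different classes of neuron use in different proportions.

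Depth ranged from 13647204 to 21691180 counts in 17 libraries. Library 9, an H1 control, held 43284 counts, so that 3 counts in it stand for 69.3 CPM (counts normalised to library depth) on the plain library total, against 0.138 to 0.22 CPM in the others. Every other CPM value here is TMM-normalised, a scale on which those 3 counts stand for 43.5 CPM. It stayed in the fitted model and was left out of every level, mean and range, which leaves 2 H1 control libraries. Library 11, an H9 chronic library, stood apart by transcript length. Relative to the mean of its group mates, its genes in the longest quartile lay 0.956 log2 units below those in the shortest quartile. The 16 libraries other than 9 and 11 ran from -0.224 to 0.551. The values of library 10 (0.551) and library 12 (0.403) are set against means that include library 11, and the highest outside this group was 0.195 (library 15). In bulk RNA, fewer cells of a type and less RNA per cell cannot be told apart. The summed markers of neuron classes differed between the lines: 8 GABAergic genes summed to 950 to 1742 CPM in H9 and 66.2 to 601 CPM in H1, and 9 glutamatergic genes, most of them cortical, summed to 49.2 to 78.1 CPM in H9 and 1693 to 3583 CPM in H1, although both lines carry the same ventral forebrain label. Single genes went the other way: SLC17A6, a glutamate transporter used beyond cortex, was higher in H9 (log2 fold change 2.36, adjusted p = 1.48e-11), and DLX5 of the GABAergic list was lower in H9 (-0.86, adjusted p = 0.0048).

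Promoter windows of 3 members are shown: SV2C and SYT9, the members with the largest differences between the lines, and SYN1, the member that carried every motif searched. RefSeq's promoter table (GRCh38.p14) held 43 windows of 28 members, each covering 250 bases before and 50 after a transcription start. The windows were searched on both strands for CAGCACC and GGACAG, the left and right parts of the element bound by REST, a repressor of neuronal genes, and for the cAMP response element. Capitals mark matches, and the 250 bases before each start are printed in the direction of transcription. SV2C lies on the plus strand at chr5:76083133-76083382, SYT9 on the plus strand at chr11:7251654-7251903 and SYN1 on the minus strand at chrX:47619858-47620107. The SYT9 window precedes a RefSeq start that lies inside the gene as GENCODE draws it (chr11:7238778-7469043), and it does not lie before the first GENCODE start.
SV2C: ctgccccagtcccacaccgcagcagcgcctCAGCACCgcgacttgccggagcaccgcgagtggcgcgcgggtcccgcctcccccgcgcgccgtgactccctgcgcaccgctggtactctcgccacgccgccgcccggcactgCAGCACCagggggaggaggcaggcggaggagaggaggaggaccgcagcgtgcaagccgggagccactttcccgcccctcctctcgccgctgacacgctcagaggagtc
SYT9: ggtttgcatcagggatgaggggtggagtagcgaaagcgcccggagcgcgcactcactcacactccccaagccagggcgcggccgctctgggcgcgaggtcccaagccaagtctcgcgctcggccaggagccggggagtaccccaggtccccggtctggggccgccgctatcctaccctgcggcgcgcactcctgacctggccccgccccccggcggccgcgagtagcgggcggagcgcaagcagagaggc
SYN1: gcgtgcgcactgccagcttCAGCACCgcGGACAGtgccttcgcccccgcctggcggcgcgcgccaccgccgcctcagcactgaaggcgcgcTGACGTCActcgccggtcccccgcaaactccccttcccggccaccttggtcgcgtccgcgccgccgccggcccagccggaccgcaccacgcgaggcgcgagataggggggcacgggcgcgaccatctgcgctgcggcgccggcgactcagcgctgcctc

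In SYN1 the parts of the REST element stood 2 bases apart on the strand of the gene, an arrangement that 18 of 35116 promoter windows held (0.051%), and a cAMP response element followed. SYN1 was chosen for printing after its matches were seen. SV2C held 2 left parts and no right part, and SYT9 held none of the motifs. The left part was in 9 of 43 member windows (20.9%), against 7.75% of all windows. The right part was in 9 of 43 (20.9%), against 20.5%, and the cAMP response element in 1 of 43 (2.33%), against 1.85%. Member windows had a median GC content of 67.3%, against 58.7% for all windows, and several windows can belong to 1 gene. A match is a description of the letters and not evidence of binding.

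Most presynaptic genes were higher in H9 organoids than in H1 organoids. Of the 36 members, 26 rose and 4 fell in H9 at a Benjamini-Hochberg adjusted p under 0.05 in edgeR's quasi-likelihood test over 17173 genes, comparing the means of the 3 treatments. This is a widely different pair of lines: 69.3% of all genes passed, 36.6% higher and 32.7% lower. The members' median log2 fold change was 0.96, against 0.03 for all genes. Among 54 other tested presynaptic genes, 44 rose and 2 fell in H9, with a median of 0.99. SNCG, encoding gamma-synuclein, was the one of smallest p with a log2 fold change of 7.32 ± 0.24 (SE, adjusted p = 7.2e-16), followed by RPH3A, the Rab3 effector rabphilin, at 3.94 ± 0.14 (adjusted p = 1.62e-15). The 2 that fell were SH3GL2, encoding endophilin A1, at -1.07 ± 0.15 (adjusted p = 1.77e-06) and SYPL1, a synaptophysin-like protein, at -0.54 ± 0.11 (adjusted p = 2.2e-04). General neuronal transcripts moved too: 13 of 20 pan-neuronal genes rose and 3 fell, and their sum was 18108 to 21356 CPM in H9 and 9752 to 11899 CPM in H1. Of 18 progenitor and cell cycle genes, 15 fell in H9 and none rose (median log2 fold change -1.39). The part of neuronal content in the members' differences was not tested.

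**Figure D1:**
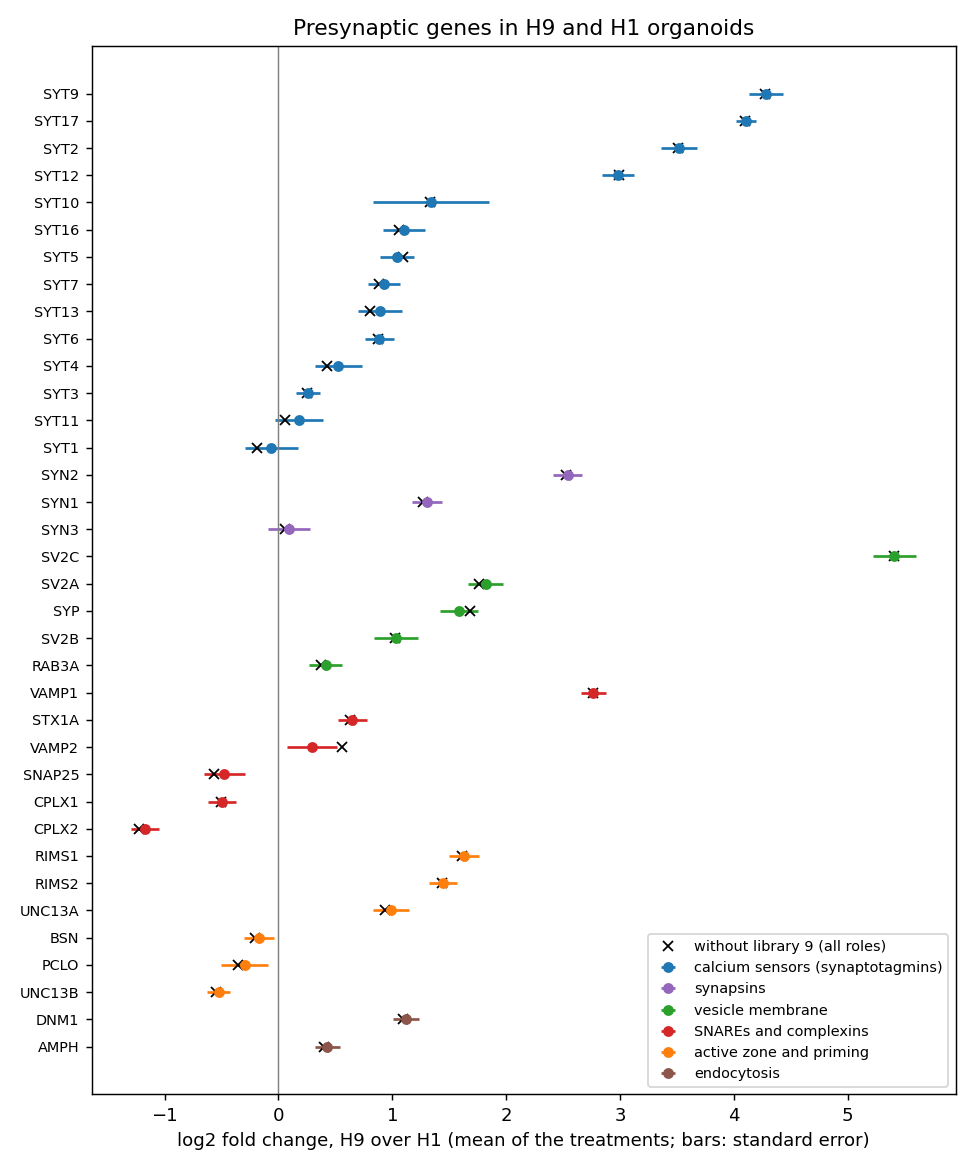
Log2 fold change of each of the 36 genes in H9 over H1 organoids (x axis), one gene per row, coloured by role, with standard errors; crosses give the fit without library 9. SV2C (5.41), SYT9 (4.28) and SYT17 (4.11) lie farthest to the right, and CPLX2 (-1.17) lies farthest to the left.

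Of the 14 synaptotagmins, 12 rose in H9 and none fell. SYT9, a fast calcium sensor for release, ran from 23.2 to 34.0 CPM in H9 (median 31.3, 9 libraries) and from 0.751 to 3.06 CPM in H1 (median 1.57, 8 libraries). SYT2, the fast sensor of many inhibitory and hindbrain synapses, ran from 16.96 to 36.4 CPM in H9 (median 19.2) and from 1.23 to 2.83 CPM in H1 (median 1.99). SYT17, a synaptotagmin relative without a transmembrane segment, ran from 64.3 to 85.8 CPM in H9 (median 71.8) and from 2.88 to 5.47 CPM in H1 (median 4.90). In all 3 genes the lowest H9 library lay above the highest H1 library. The log2 fold changes were 4.28 ± 0.15 for SYT9 (adjusted p = 2.49e-15), 3.52 ± 0.16 for SYT2 (adjusted p = 7.97e-14) and 4.11 ± 0.09 for SYT17 (adjusted p = 9.33e-18). SYT12, which lacks calcium binding, followed at 2.98 ± 0.14 (adjusted p = 1.59e-13).

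SYT1, the main fast sensor of forebrain neurons, did not share that difference. It ran from 432 to 602 CPM in H9 (median 534) and from 499 to 739 CPM in H1 (median 596), with overlapping ranges. Its log2 fold change was -0.06 ± 0.23 (adjusted p = 0.823), and its sign turned with the scaling, to 0.04 with DESeq2 size factors. Without library 9, in which SYT1 stood at 29.0 CPM, SYT1 was lower in H9 by -0.19 ± 0.07 (adjusted p = 0.0176). On the length-scaled TPM values SYT1 still held 94.5% to 96.3% of the summed level of SYT1, SYT2 and SYT9 in H9 (median 95.7%), against 99.4% to 99.8% in H1 (median 99.7%). SYT1 was 17.3% of the summed TPM of all 14 synaptotagmins in H9 and 24.5% in H1 (medians). In the same sum SYT11 held 23.7% in H9 and 29.5% in H1, and SYT4 held 23.5% in H9 and 22.2% in H1. SYT11, a synaptotagmin that does not bind calcium, also missed the threshold (0.18 ± 0.21, adjusted p = 0.461).

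The remaining synaptotagmins rose by less. SYT7, a slow sensor tied to asynchronous release and facilitation, ran from 165 to 253 CPM in H9 and from 103 to 135 CPM in H1 without overlap, a log2 fold change of 0.93 ± 0.14 (adjusted p = 6.17e-06). SYT5 was at 1.04 ± 0.15, SYT6 at 0.89 ± 0.13, SYT13 at 0.89 ± 0.19 and SYT16 at 1.10 ± 0.18, all with adjusted p at or below 3.95e-04. Of these, SYT16 alone overlapped between the lines, through library 11, at 79.1 to 222 CPM in H9 and 58.9 to 92.7 CPM in H1. SYT4 (0.53 ± 0.21, adjusted p = 0.0294) and SYT3 (0.26 ± 0.11, adjusted p = 0.034) passed with small differences and overlapping ranges. SYT10 passed at 1.34 ± 0.51 (adjusted p = 0.0245) on 1 to 22 counts per library. SYT10 had the lowest TPM of the 36 in both lines, with medians of 0.69 in H9 and 0.195 in H1.

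Synapsins coat vesicles and tether them to one another in the reserve pool, and 2 of 3 rose in H9. SYN2 ran from 144 to 224 CPM in H9 (median 185) and from 21.9 to 39.8 CPM in H1 (median 34.3), a log2 fold change of 2.54 ± 0.12 (adjusted p = 3.27e-13). SYN1 ran from 250.5 to 390 CPM in H9 (median 280) and from 91.5 to 163 CPM in H1 (median 114), a log2 fold change of 1.30 ± 0.13 (adjusted p = 1.88e-08). SYN3, the synapsin of developing neurons, had overlapping ranges of 42.3 to 127.4 CPM in H9 and 62.6 to 127.3 CPM in H1 and a log2 fold change of 0.09 ± 0.19 (adjusted p = 0.673). In shares of the summed synapsin TPM, SYN2 had a median of 18.5% in H9 and 8.58% in H1, and SYN3 had 6.27% in H9 and 13.7% in H1, while SYN1 was the most abundant in both lines at 75.0% in H9 and 76.1% in H1.

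All 5 vesicle membrane genes rose in H9. SV2C, the SV2 paralog with the most restricted brain expression, ran from 36.8 to 69.8 CPM in H9 (median 62.1) and from 0.592 to 4.42 CPM in H1 (median 1.36), the largest difference among the 36 at 5.41 ± 0.19 (adjusted p = 2.27e-15). SV2A, the broadly used SV2 protein, ran from 999 to 1533 CPM in H9 (median 1181) and from 336 to 398 CPM in H1 (median 355), a log2 fold change of 1.82 ± 0.15 (adjusted p = 1.73e-09). SYP, encoding synaptophysin, ran from 562 to 1212 CPM in H9 (median 663) and from 189 to 249 CPM in H1 (median 219), a log2 fold change of 1.59 ± 0.17 (adjusted p = 6.28e-08). None of these genes overlapped between the lines. SV2B was at 1.03 ± 0.20 (adjusted p = 9.69e-05) and RAB3A, the vesicle GTPase, at 0.42 ± 0.15 (adjusted p = 0.0164), both with overlapping ranges. Despite its large difference SV2C was a minor paralog: by TPM it made up 0.85% to 2.0% of the summed SV2 level in H9 and 0.0576% to 0.372% in H1, and SV2A at least 96.8% in every library of either line.

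The fusion machinery divided. VAMP1, the vesicle SNARE of brainstem and spinal synapses and of some forebrain interneurons, ran from 34.6 to 52.5 CPM in H9 (median 44.6) and from 4.58 to 9.46 CPM in H1 (median 6.28), a log2 fold change of 2.77 ± 0.11 (adjusted p = 1.43e-14). STX1A, the plasma membrane syntaxin, rose by 0.65 ± 0.13 (adjusted p = 1.3e-04). VAMP2, the principal forebrain vesicle SNARE, ran from 480 to 940 CPM in H9 (median 538) and from 335 to 511 CPM in H1 (median 380). It missed the threshold at 0.29 ± 0.22 (adjusted p = 0.245). Library 9, at 1593 CPM, set this result, and without it VAMP2 rose by 0.55 ± 0.10 (adjusted p = 6.83e-05). By TPM VAMP1 was 5.11% of the VAMP1 and VAMP2 sum in H9 and 1.13% in H1 (medians).

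CPLX2, a complexin of excitatory forebrain neurons, ran from 113 to 172 CPM in H9 (median 145) and from 307 to 373 CPM in H1 (median 341), without overlap, and fell by 1.17 on the log2 scale in H9 (SE 0.12, adjusted p = 5.03e-08). CPLX1, the complexin more used by inhibitory neurons, was lower at -0.50 ± 0.12 (adjusted p = 0.00119), and its ranges of 14.2 to 35.8 CPM in H9 and 24.1 to 36.4 CPM in H1 overlapped through library 11. SNAP25 ran from 220.1 to 274 CPM in H9 (median 243) and from 254 to 423 CPM in H1 (median 377), overlapping, a log2 fold change of -0.48 ± 0.18 (adjusted p = 0.0227).

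Of 6 active zone and priming genes, 3 rose in H9 and 1 fell. RIMS1 and RIMS2, which encode RIM scaffolds, were at 1.63 ± 0.13 (adjusted p = 1e-09) and 1.45 ± 0.12 (adjusted p = 1.93e-09), without overlap between the lines. UNC13A, encoding Munc13-1, ran from 223 to 356 CPM in H9 (median 283) and from 133 to 156 CPM in H1 (median 147), a log2 fold change of 0.99 ± 0.16 (adjusted p = 1.54e-05). Its paralog UNC13B, encoding Munc13-2, ran the other way, from 47.9 to 79.9 CPM in H9 (median 77.4) and from 93.3 to 119 CPM in H1 (median 103), a log2 fold change of -0.53 ± 0.10 (adjusted p = 1.35e-04). By TPM UNC13A was 79.9% to 86.7% of the UNC13A and UNC13B sum in H9 (median 83.0%) and 60.6% to 67.7% in H1 (median 64.2%). The giant scaffolds BSN (-0.17 ± 0.13, adjusted p = 0.26) and PCLO (-0.30 ± 0.21, adjusted p = 0.212) did not pass, had overlapping ranges and changed sign in the fits to TPM. Both endocytic genes rose: DNM1, the dynamin that cuts vesicles from the membrane, at 1.12 ± 0.11 (adjusted p = 1.94e-08) and AMPH, its partner amphiphysin, at 0.43 ± 0.11 (adjusted p = 0.00156).

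The most abundant members also differed. By median TPM the order in H9 was SYP at 905, SV2A at 882, VAMP2 at 697, RAB3A at 594 and SYT11 at 479, and in H1 it was VAMP2 at 480, SYT11 at 424, RAB3A at 422, SNAP25 at 376 and SYT1 at 348. Neighbours in each order overlapped in range over libraries, apart from RAB3A (530.4 to 818.5 TPM) and SYT11 (327 to 496 TPM) in H9. Without library 9 the test called 33 members, 27 higher and 6 lower in H9, where 74.5% of all genes passed. The genes gained were VAMP2, SYT1 and BSN, the last at -0.21 (adjusted p = 0.0495).

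In H1 organoids chronic dopamine was followed by higher SV2C and SYT17, and no other member passed the test. The comparison asks whether RNA of the release genes differed from vehicle after a week of dopamine with a final dose 1 hour before collection. It cannot separate the week of dosing from that final dose. These 2 of 36 genes (5.56%) compare with 1.42% of all genes. SV2C, at chr5:76083383-76353939 (GRCh38), stood at 4.42, 3.05 and 1.88 CPM in chronic libraries, 1.76, 0.712 and 0.965 CPM in acute libraries, and 0.882 and 0.592 CPM in control libraries. Every chronic library was above every acute and control library, on 32 to 78 counts in chronic libraries and 11 and 15 counts in controls. The means were 3.11 ± 1.27 CPM in chronic (SD, n = 3) and 0.737 ± 0.204 CPM in control organoids (SD, n = 2). The log2 fold change was 2.09 ± 0.43 (SE, adjusted p = 0.0146 in edgeR's quasi-likelihood test).

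SYT17, at chr16:19167971-19268332 (GRCh38), stood at 5.27, 4.98 and 4.82 CPM in chronic libraries, 5.47, 5.18 and 4.72 CPM in acute libraries, and 2.88 and 3.07 CPM in control libraries. Chronic and acute libraries lay together, above both controls. The log2 fold change of chronic over control was 0.76 ± 0.17 (SE, adjusted p = 0.028). VAMP1, the third member by p, stood at 9.46, 7.73 and 7.87 CPM in chronic libraries and 4.58 and 6.03 CPM in controls, without overlap, at 0.66 ± 0.21 (adjusted p = 0.162).

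Both calls rest on few libraries. Neither held without library 1, 7 or 8 (adjusted p between 0.0595 and 0.293), and SYT17 did not hold without library 2 (adjusted p = 0.0727) or library 3 (adjusted p = 0.0687). Markers of other cells moved in the same libraries: all 8 GABAergic genes rose, with a sum of 601, 356 and 427 CPM in chronic, 137, 419 and 330.1 CPM in acute and 136 and 66.2 CPM in control libraries, and all 4 tested pigment genes rose, with a sum of 15.5 to 18.1 CPM in chronic and 1.78 and 2.00 CPM in control libraries. Among the 54 other presynaptic genes, NRXN3, encoding neurexin 3, and SYNPR, encoding synaptoporin, rose by 1.71 ± 0.34 (adjusted p = 0.012) and 1.70 ± 0.37 (adjusted p = 0.0201), and none fell. The part of these cell markers in the SV2C and SYT17 results was not tested.

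**Figure D2:**
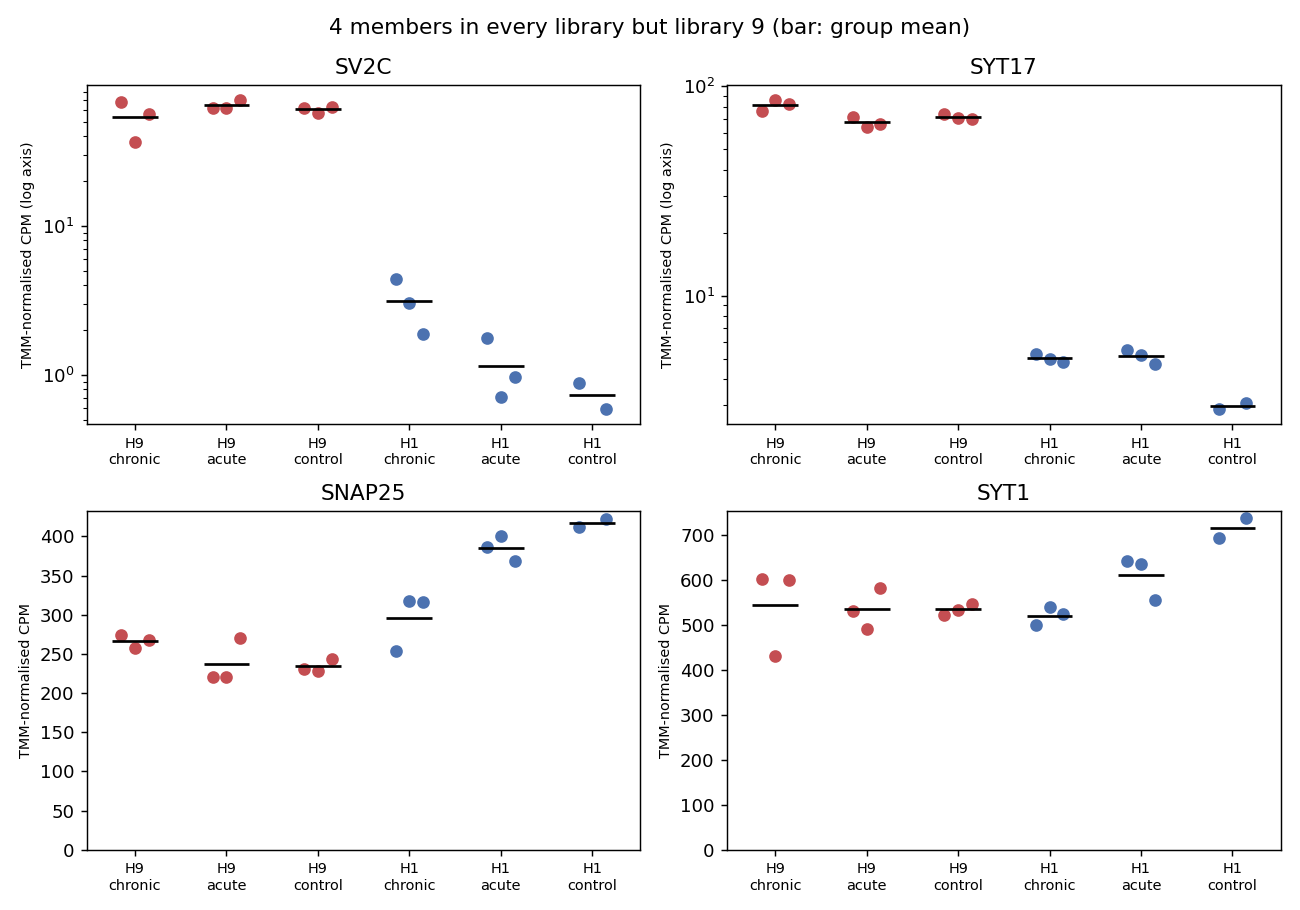
CPM of SV2C, SYT17, SNAP25 and SYT1 in each library but library 9, by group (H9 in red, H1 in blue; bars are group means; SV2C and SYT17 on log axes). In H1, SV2C is at 1.88 to 4.42 CPM in chronic and 0.592 to 0.882 CPM in control libraries, while SNAP25 is at 254 to 318 CPM in chronic and 412 and 423 CPM in control libraries.

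SNAP25 and SYT1 were lower in the chronic H1 libraries once library 9 was set aside. SNAP25, at chr20:10172395-10308258 (GRCh38), stood at 254, 318 and 316 CPM in chronic, 387, 401 and 368 CPM in acute and 412 and 423 CPM in control libraries, with no overlap between these groups. SYT1, at chr12:78863993-79452008 (GRCh38), stood at 499, 540 and 524 CPM in chronic, 643, 636 and 556 CPM in acute and 695 and 739 CPM in control libraries, again with no overlap. With library 9 in the fit, at 29.0 CPM in both genes, the log2 fold changes of chronic over control were -0.23 for SNAP25 and -0.09 for SYT1, and neither passed. Without library 9, where 1.59% of all genes passed, SNAP25 fell by 0.50 on the log2 scale (SE 0.11, adjusted p = 0.0359), and SYT1 was at -0.46 ± 0.12 (adjusted p = 0.0822). Without libraries 9 and 11 both fell (SNAP25 adjusted p = 0.0156, SYT1 adjusted p = 0.00754), and 4 members passed in all, where 3.2% of all genes passed. Library 11 is an H9 library, so leaving it out changed no H1 count. It acts on this test through the shared filter, scaling, estimate of spread and adjustment. The 9 glutamatergic genes summed to 1693 to 2067 CPM in chronic, 2321 to 3086 CPM in acute and 2930 and 3583 CPM in control libraries, and none of them passed; their part in the SNAP25 and SYT1 values was not tested.

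Across the 36 members in H1, chronic and control libraries did not overlap in 23 genes (10 higher and 13 lower in chronic), or 63.9%, against 37.6% of all genes. With 2 controls, this is a coarse measure. The members higher in chronic without overlap included SYT2, SYT9, SYT12 and SYN2, and those lower included RAB3A, CPLX1, STX1A, PCLO and SYN3. RAB3A stood at 176, 191 and 200.4 CPM in chronic and 255 and 307 CPM in control libraries. SYN3 stood at 62.6, 63.4 and 62.8 CPM in chronic and 95.2 and 127.3 CPM in control libraries. The members' median log2 fold change was -0.09 without library 9, with 14 of 36 positive, against 0.0084 for all genes; with library 9 it was -0.04, with 17 positive, against 0.05. The members' share of counts was 0.494% to 0.5% in chronic and 0.539% and 0.541% in control libraries.

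In H9 organoids no member passed the test of chronic dopamine against control, and most had small positive fold changes. The edgeR test called 0 of 36 at an adjusted p under 0.05, against 0.576% of all genes, and DESeq2 called 0. An unadjusted p under 0.05 was reached by 3 members, against 1427 of all 17173 genes. Of the 36, 30 had a positive log2 fold change (median 0.19), against 49.7% of all genes (median near 0). Without library 11 all 36 were positive (median 0.21), ranging from 0.03 for UNC13B to 0.46 for PCLO, against 48.1% of all genes, and still none passed. The 36 genes together took 0.871%, 0.866% and 0.892% of counts in chronic libraries, 0.781%, 0.718% and 0.793% in acute libraries and 0.773%, 0.713% and 0.788% in control libraries. All 3 chronic libraries lay above all 6 others, but library 11 is also the library set apart by transcript length. The other presynaptic genes did not separate in library 11. They summed to 9582 CPM there, below acute libraries 13 (9982 CPM) and 15 (10126 CPM) and control library 18 (10081 CPM). Chronic libraries 10 and 12 lay above these at 10940.5 and 11162 CPM.

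The members of smallest p were CPLX1 at 0.56 ± 0.21 (adjusted p = 0.334), SYT3 at 0.45 ± 0.18 (adjusted p = 0.408) and SYT12 at 0.46 ± 0.20 (adjusted p = 0.498), all 3 highest in library 11. CPLX1 stood at 21.2, 35.8 and 21.9 CPM in chronic and 22.5, 14.2 and 16.7 CPM in control libraries, so that library 11 alone lay above the highest control. Without it CPLX1 was at 0.28 and SYT3 at 0.16. SV2A, which library 11 did not set apart, stood at 1381, 1460 and 1533 CPM in chronic and 1177, 999 and 1184 CPM in control libraries, without overlap, and its log2 fold change was 0.38 both with and without library 11 (adjusted p = 0.783 without it). In 10 members the chronic libraries did not overlap the controls, all higher in chronic (27.8%, against 13.4% of all genes): SYT3, SYT7, SYT12, SYT17, SYP, SNAP25, VAMP2, SV2A, RAB3A and CPLX2.

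Other transcripts moved in the same H9 libraries. The 20 pan-neuronal genes summed to 20394 to 21356 CPM in chronic and 18360 to 19744 CPM in control libraries, the 18 progenitor genes to 2437 to 2998 CPM in chronic and 2827 to 3630.2 CPM in control libraries, and 6 mesenchymal genes to 14.9 to 22.0 CPM in chronic and 28.8 to 400.3 CPM in control libraries. None of the pan-neuronal or progenitor genes passed, and 4 of the 6 mesenchymal genes fell. Blood genes summed to 0.197 to 1.03 CPM in chronic and 2.19 to 158 CPM in control libraries, and none of them passed. The high sums were in control libraries 17 and 18 (76.1 and 158 CPM) and acute library 13 (54.2 CPM). Control library 16 stood at 2.19 CPM, and acute libraries 14 and 15 at 0.937 and 0.632 CPM. The part of these in the presynaptic share of counts was not tested.

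**Figure D3:**
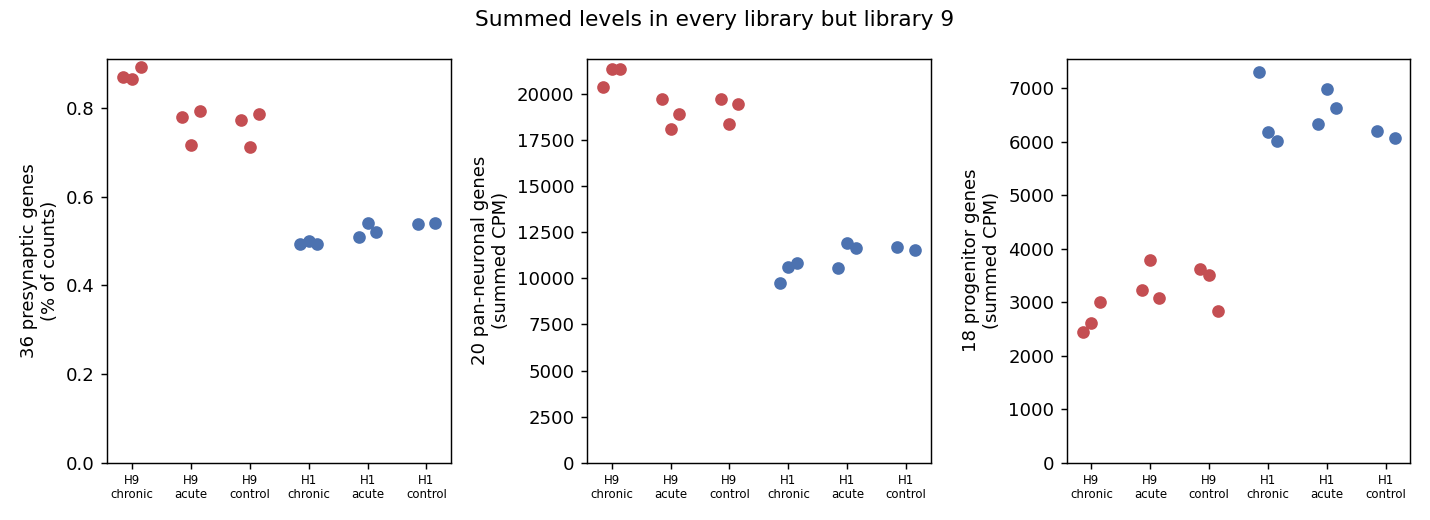
Share of counts in the 36 presynaptic genes (percent), and summed CPM of 20 pan-neuronal and 18 progenitor genes, in each library but library 9 (H9 in red, H1 in blue). The presynaptic share is 0.866% to 0.892% in H9 chronic libraries, 0.713% to 0.793% in the other H9 libraries and 0.494% to 0.541% in H1 libraries.

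Over the members, the offset of library 11 from the mean of libraries 10 and 12 followed transcript length. On log2(CPM + 1) PCLO, with a canonical transcript of 20284 bases, was at -1.63 relative to its group mates, SYT16 at -1.38 and SYN3 at -1.27. SYT3 was at 0.74, CPLX1 at 0.71 and SYP at 0.67, with transcripts of 2526, 2112 and 2421 bases. Spearman's rho over the 36 genes was -0.82, a description of 1 library in which all points share the same sample. In the acute and control H9 libraries, each against its own group mates, rho ran from -0.595 (library 16) to 0.563 (library 18). Libraries 14 and 15 were at -0.56 and 0.488, and libraries 13 and 17 at 0.042 and 0.266.

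**Figure D4:**
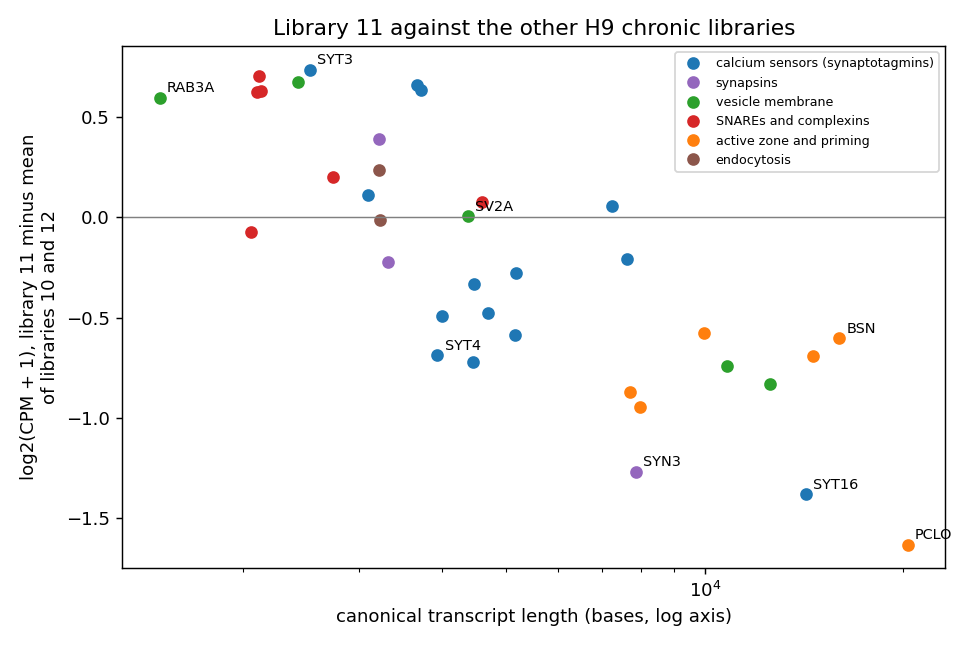
Difference in log2(CPM + 1) between library 11 and the mean of the other 2 H9 chronic libraries (y axis) against the canonical transcript length in bases (log x axis) for the 36 genes, coloured by role. Values fall with length, to -1.63 at PCLO.

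On the log2 scale the effect of chronic dopamine differed between the lines for SV2C. The H1 controls stood at 0.882 and 0.592 CPM, far below H9, so an equal gain in CPM would give unlike log2 fold changes. Whether the gains in CPM differed was not tested. In H9 SV2C stood at 68.4, 36.8 and 56.7 CPM in chronic and 62.1, 57.3 and 62.7 CPM in control libraries, overlapping, at a log2 fold change of -0.17. The lowest value is that of library 11, where SV2C was at -0.742 relative to its group mates on log2(CPM + 1). Without library 11 the H9 effect was positive, as in all 36 members. The test of the difference itself, the H9 effect minus the H1 effect, gave -2.26 ± 0.49 (SE, adjusted p = 0.0189), the only one of 36 members to pass, where 1.76% of all genes passed. SV2C did not pass this test without library 1, 7 or 8. Without library 11 the difference was -2.04 (adjusted p = 0.0162). Without library 9, where 1.72% of all genes passed, SNAP25 also passed at 0.70 ± 0.15 (adjusted p = 0.0287). Without libraries 9 and 11, where 3.58% of all genes passed, SYT1, SYT17, SYN3 and PCLO were added, SYN3 at 1.21 (adjusted p = 0.0411) and PCLO at 0.93 (adjusted p = 0.0481). In SNAP25, SYT1, SYN3 and PCLO the H9 effect was above the H1 effect, and in SV2C and SYT17 it was below.

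**Figure D5:**
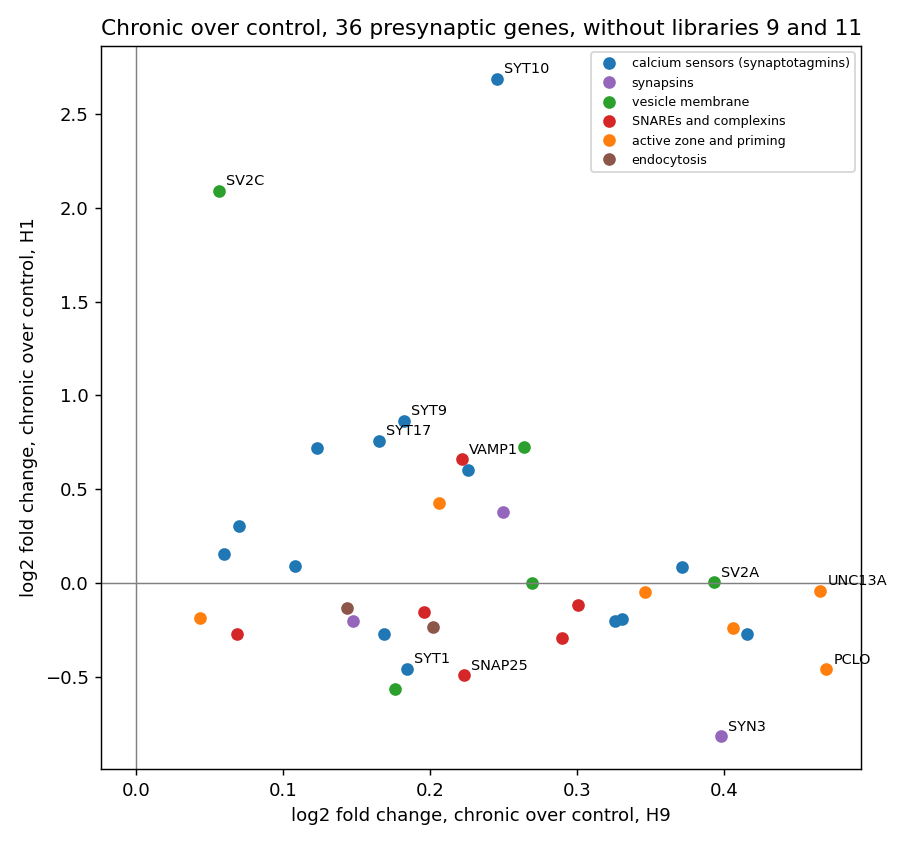
Log2 fold change of chronic over control in H9 (x axis) and in H1 (y axis) for the 36 genes, from the fit without libraries 9 and 11, coloured by role. Every gene lies right of 0 on the H9 axis, while on the H1 axis 15 lie above 0 and SV2C is at 2.09.

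An hour of dopamine left no member past the threshold in either line. In H1 edgeR called 0 of 36 acute against control, against 0.0175% of all genes, and DESeq2 called 0. An unadjusted p under 0.05 was reached by 1 member, against 628 of all 17173 genes. That member was SYT17 at 0.79 ± 0.17 (adjusted p = 0.211), whose values in acute libraries are given above. SV2B (0.76 ± 0.37) and VAMP2 (-0.72 ± 0.40) followed, both at an adjusted p of 1, and VAMP2 turned to 0.08 without library 9. Acute and control H1 libraries did not overlap in 8 members (22.2%), against 16.3% of all genes. In H9 edgeR called 0 of 36, against 0% of all genes, and DESeq2 called 0. An unadjusted p under 0.05 was reached by 1 member, SYT2 (0.50 ± 0.21, adjusted p = 1), against 393 of all 17173 genes. BSN (0.23 ± 0.22) and SYN3 (0.28 ± 0.31) came next, both at an adjusted p of 1. Acute and control H9 libraries overlapped in all 36 members, against 9.75% of all genes that did not overlap. The difference between lines of the acute effect was called in 0 of 36 members (0% of all genes). SYT17 had the smallest p at -0.88 ± 0.21 (adjusted p = 0.552), before SYN2 at -0.42 ± 0.29 and SYN3 at 0.64 ± 0.46, both at an adjusted p of 1.

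Chronic and acute dopamine were also compared directly. In H1 edgeR called 0 of 36 members, against 0.128% of all genes, and DESeq2 called 0. An unadjusted p under 0.05 was reached by 4 members, against 860 of all 17173 genes. SV2C was at 1.40 ± 0.34 (adjusted p = 0.184), VAMP1 at 0.57 ± 0.18 (adjusted p = 0.53) and SYT9 at 0.85 ± 0.28 (adjusted p = 0.563). In H9 edgeR called 0 of 36, against 0.949% of all genes, and DESeq2 called 0. An unadjusted p under 0.05 was reached by 6 members, against 2024 of all 17173 genes. CPLX1 was at 0.73 ± 0.21 (adjusted p = 0.106), SYT3 at 0.52 ± 0.18 (adjusted p = 0.212) and SYT17 at 0.28 ± 0.12 (adjusted p = 0.343). SYT17 stood at 76.7, 85.8 and 82.2 CPM in H9 chronic libraries and 71.8, 64.3 and 65.8 CPM in H9 acute libraries, without overlap. In H9 chronic and acute libraries did not overlap in 12 members (33.3%), all higher in chronic, against 20.4% of all genes. In H1 they did not overlap in 12 members (33.3%), 6 higher and 6 lower in chronic, against 17.2% of all genes.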

How the data were processed

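For 18 libraries the authors deposited a count table and a TPM table by gene symbol, per the file headers. Per the labels' protocols, libraries were stranded, paired-end and made from poly(A) RNA. The builds named in the submitters' processing notes are GRCh38 and hg38. The sources used here name no aligner, counter or annotation. The 2 comparison tables that the authors deposited (log2 fold change, signed fold change as a score, adjusted p-value) listed none of the 36 genes and were not used. Of all counts, 0.439% lay in 28 symbols turned into dates.

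Genes passing filterByExpr (17173) were TMM-scaled and tested with edgeR 4.0.16 (R 4.3.3) by quasi-likelihood F tests on contrasts of 6 group means in 1 fit of all libraries, with Benjamini-Hochberg adjustment over all tested genes and a threshold of 0.05. The standard error is the log2 fold change divided by the square root of F. The fits were also run on simulated counts with known changes and no transcript length bias, DESeq2 and limma only for chronic against control in H1. The outcome is not used here. Alternatives used DESeq2 1.42.0 and limma 3.58.1 on log2(TPM + 1) and log2(TPM + 0.1), other filters, fewer libraries and a split of libraries by blood against gut transcripts (5 and 13 libraries). Groups came from the labels. Levels are TMM-normalised CPM, and TPM where genes are compared. Positions and transcript lengths are from GENCODE 44 (GRCh38), with a length for 86.5% of tested genes. Members and lists were chosen with earlier results of these data known. All members were named in H9 against H1; elsewhere every member that passed, or at least the 3 of smallest p; of the other presynaptic genes, up to 4 per direction by p. Members named because their libraries did not overlap, or because a call appeared without library 9 or 11, were chosen after their values were seen.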

Additional observations from a re-analysis of the deposited data

Results flagged for a closer look

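SV2C was set apart by a difference between the lines in the effect of chronic dopamine, tested directly. The H9 effect minus the H1 effect was -2.255 on the log2 scale (SE 0.49, adjusted p = 0.0189 in edgeR's quasi-likelihood test), with effects of -0.17 in H9 and 2.09 in H1. Without library 11 the H9 effect was positive and the difference was -2.044 (adjusted p = 0.0162 in the same test). In that test the difference did not pass without library 1 (adjusted p = 0.0895), library 7 (adjusted p = 0.059) or library 8 (adjusted p = 0.181). It did not pass with limma either. All 3 chronic H1 libraries were above both H1 controls that had usable depth, while chronic and control libraries overlapped in H9. SV2C had 0 counts in library 9, and the H1 controls it was compared with held 11 and 15 counts. From so low a level an equal gain in CPM would give a larger log2 fold change than in H9.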

How the results depend on the processing

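The 36 members gave 60 gene results. Under the planned settings other than leaving out 1 library, 446 of 503 values kept direction and side of the threshold, 44 lost and 2 gained the call and 11 changed sign; when 1 library was left out, 1038 of 1080 were kept, 35 lost and 3 gained the call and 4 changed sign. For H9 against H1, 30 members passed (69.3% of all genes), against 17 with limma on log2(TPM + 0.1) and 27 to 33 when 1 library was left out. Shares of all genes passing are given above only for the main fit and fits without libraries 9 or 11. Counts under limma, DESeq2, other filters or the split therefore cannot be read as particular to the members. SYT1 in H9 against H1 turned to 0.044 with DESeq2 size factors, 0.072 with DESeq2 and 0.35 and 0.36 with limma (pseudocounts 1 and 0.1). It was 0.0096 in libraries with no more blood than gut counts and -0.19 to 0.031 when 1 library was left out. BSN turned to 0.14 and 0.18 and PCLO to 0.15 and 0.49 with limma at those pseudocounts, and SYN3 ran from -0.020 to 0.19 when 1 library was left out. For chronic against control in H1, 2 members passed, against 1 without the low-count filter, 1 with DESeq2 and 0 with limma at either pseudocount. Leaving out 1 library gave 0 to 3, and 4 passed without libraries 9 and 11. Calls in libraries with no more blood than gut counts are not given. That setting keeps only library 16 as H9 control, and library 7 beside library 9 as H1 controls. Chronic against acute gave 1 call in H1 and 1 in H9 without the low-count filter. For the line difference of the chronic effect 1 passed, against 0 with limma at either pseudocount and 0 to 2 when 1 library was left out. In the same comparison 6 passed without libraries 9 and 11, and 2 without library 9 and with the blood or gut split as covariate. VAMP2 in acute H1 ran from -1.10 to 0.076 when 1 library was left out, and was 0.071 without libraries 9 and 11 and 0.052 without library 9 with the split; SYN3 in the line difference of the acute effect was -0.92 and -1.99 with limma at those pseudocounts. The cause was not tested. The settings without libraries 9 and 11, and without library 9 with the split, were chosen after seeing the data. The median over all genes moved by over 0.1 log2 in H9 against H1, from 0.03 to 0.14 with DESeq2 size factors. No paired analysis was possible because library numbers are not shared between groups. H1 control depth limits every H1 comparison with it: 2 of 3 libraries are usable.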
